A study of Homo sapiens with 23 samples.

Results

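The mitochondrial ribosomal protein genes were taken as the GENCODE protein-coding genes whose symbol is MRPL or MRPS followed by a number. There were 78 of them, 49 MRPL and 29 MRPS, among 58592 genes whose estimated counts were summed. All 78 were among the 17743 genes tested. They were measured by poly(A) RNA sequencing in 23 libraries of SUDHL5, a cell line from a human diffuse large B cell lymphoma (DLBCL). CDK-TCIP1 is a bivalent molecule made to bring the transcriptional kinase CDK9 to the repressor BCL6, and the study's title concerns the use of such kinases to start apoptosis. Cells treated with CDK-TCIP1 gave 2 libraries at 10 nM, 4 at 30 nM and 3 at 100 nM after 2 h, and 3 at 30 nM after 4 h. The compounds Neg1 (labelled BAK_04_054) and Neg2 (labelled BAK_04_066) were each given at 30 nM for 2 h and for 4 h, with 2 libraries in each of these 4 groups. The 3 DMSO libraries were from 4 h, and all cells, treated or not, had the same final DMSO concentration. No DMSO library was from 2 h, so the 2 h groups differ from DMSO in time as well as in compound.

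Mitochondria carry their own ribosome, which translates the few mRNAs of the mitochondrial genome, most of them for subunits of the respiratory chain. Its rRNAs come from mitochondrial DNA, whereas its proteins are encoded in the nucleus, made in the cytosol and imported. Some of the proteins have bacterial counterparts and others are found only in mitochondrial ribosomes. The MRPS prefix does not always mark the small subunit, since the MRPS30 and MRPS18A proteins sit in the large one, and MRPS36 is now known as a part of the 2-oxoglutarate dehydrogenase complex.

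The promoters of the genes with the largest changes against DMSO after 30 nM CDK-TCIP1 for 4 h are shown first, because the results below turn on these genes. Each runs from 250 bases before to 50 bases after the start in RefSeq (GRCh38.p14), and capitals mark a match to a searched motif. The MRPL44 promoter lies at chr2:223957213-223957512 (+) and holds an NRF1 match, and the MRPL33 promoter lies at chr2:27771469-27771768 (+) and holds an ETS match. The MRPS35 promoter at chr12:27710582-27710881 (+) and the MRPL39 promoter at chr21:25607432-25607731 (-) hold none of the motifs.
MRPL44: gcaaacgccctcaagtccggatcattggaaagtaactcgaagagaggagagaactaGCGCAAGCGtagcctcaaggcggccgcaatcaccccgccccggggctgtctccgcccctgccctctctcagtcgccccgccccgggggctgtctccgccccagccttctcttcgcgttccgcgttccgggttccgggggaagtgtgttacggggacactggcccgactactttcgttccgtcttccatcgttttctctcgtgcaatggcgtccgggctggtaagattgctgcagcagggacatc
MRPL33: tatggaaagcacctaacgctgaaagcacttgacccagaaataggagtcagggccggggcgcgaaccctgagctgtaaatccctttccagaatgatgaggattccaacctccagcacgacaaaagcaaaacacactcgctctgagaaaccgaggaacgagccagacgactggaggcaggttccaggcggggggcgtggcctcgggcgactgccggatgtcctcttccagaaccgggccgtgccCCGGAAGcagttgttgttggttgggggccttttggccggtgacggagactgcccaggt
MRPS35: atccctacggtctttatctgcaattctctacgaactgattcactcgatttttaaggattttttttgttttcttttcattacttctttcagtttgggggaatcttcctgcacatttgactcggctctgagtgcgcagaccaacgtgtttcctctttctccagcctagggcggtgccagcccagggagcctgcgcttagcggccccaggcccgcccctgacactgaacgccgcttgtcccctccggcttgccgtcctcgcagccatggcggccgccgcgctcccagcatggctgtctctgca
MRPL39: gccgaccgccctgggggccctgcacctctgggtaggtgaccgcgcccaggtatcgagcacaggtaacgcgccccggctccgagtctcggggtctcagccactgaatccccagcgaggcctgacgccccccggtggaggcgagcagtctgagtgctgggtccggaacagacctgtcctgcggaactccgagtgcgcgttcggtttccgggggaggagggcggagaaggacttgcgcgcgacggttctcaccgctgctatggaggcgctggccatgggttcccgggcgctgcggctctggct

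The motifs searched on both strands were GCGCANGCG (NRF1, a regulator of nuclear genes for mitochondria), CCGGAAG (ETS factors such as GABPA), AAGATGGCG (YY1) and CACGTG (the E-box bound by MYC). RefSeq promoters were matched for 69 of the 78 genes, which gave 85 promoters. The ETS letters stood in 38.8% of these and in 16.7% of the 15169 promoters of protein-coding genes tested. The YY1 letters stood in 15.3% against 3.37%, the NRF1 letters in 17.6% against 12.3% and the E-box in 10.6% against 9.21%. Among the other falls named at 4 h against DMSO, MRPS26, MRPL58 and MRPS22 had an ETS match and MRPL57 and MRPL17 an NRF1 match. Among the other rises, MRPL30 had NRF1 and ETS matches and MRPL49 an E-box, while MRPS11, MRPL11 and MRPS14 had none. The rise MRPL23 and the fall MRPL35 had no matched promoter and were not searched. A match describes the letters and does not show that a factor was bound.

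The genes were expressed in every library, with no member under 204 counts in any of them. Per length, the highest mean levels over all libraries were 554 TPM for MRPL51 and 292 TPM for MRPL4, and the lowest were 10.9 TPM for MRPL50 and 17.1 TPM for MRPS17. The median member had 70.4 TPM. In counts scaled to a common library size by TMM (CPM below), the 78 genes summed to 4784 ± 21.5 in 30 nM CDK-TCIP1 at 4 h, against 4932 ± 138 in DMSO (SD, n = 3 each). These groups overlapped, since the highest treated library had 4807 and the lowest DMSO library 4803. Neg1 had 4960 ± 58.6 and Neg2 5127 ± 166 at 4 h (SD, n = 2 each). After 2 h of CDK-TCIP1 the sum was 4997 ± 45.7 at 10 nM (n = 2), 5051 ± 125 at 30 nM (n = 4) and 5270 ± 219 at 100 nM (n = 3). At 2 h it was 4950 ± 75.4 in Neg1 and 4893 ± 318 in Neg2 (n = 2 each). The 100 nM libraries had 5508, 5227 and 5076 in replicates 1, 2 and 3. Neg2 at 2 h had 4668 in replicate 1 and 5118 in replicate 2, below and above the mean of 30 nM at 2 h. The order of the 2 h doses against DMSO depends on the scale. On library totals alone the sum was 5011 at 10 nM, 4920 at 30 nM and 4819 at 100 nM, all below the 5038 of DMSO at 4 h, whereas on TMM all 3 lay above DMSO. TPM, the measure per length, is a share of a fixed total in each library and had no TMM scaling. The summed TPM was 6953 to 7034 at 10 nM, 6497 to 6614 at 30 nM and 5984 to 6152 at 100 nM. In DMSO at 4 h it was 7249 to 7389, with no overlap between these groups. It ran from 6469 to 6584 TPM in 30 nM CDK-TCIP1 at 4 h, also below every DMSO library. At 2 h it ran from 7378 to 7573 TPM in Neg1 and from 7088 to 7302 in Neg2, which overlapped DMSO. At 4 h it ran from 7342 to 7414 TPM in Neg1, which overlapped DMSO. In Neg2 at 4 h it ran from 7498 to 7534, above every DMSO library, so a control group also stood apart from DMSO.

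**Figure D1:**
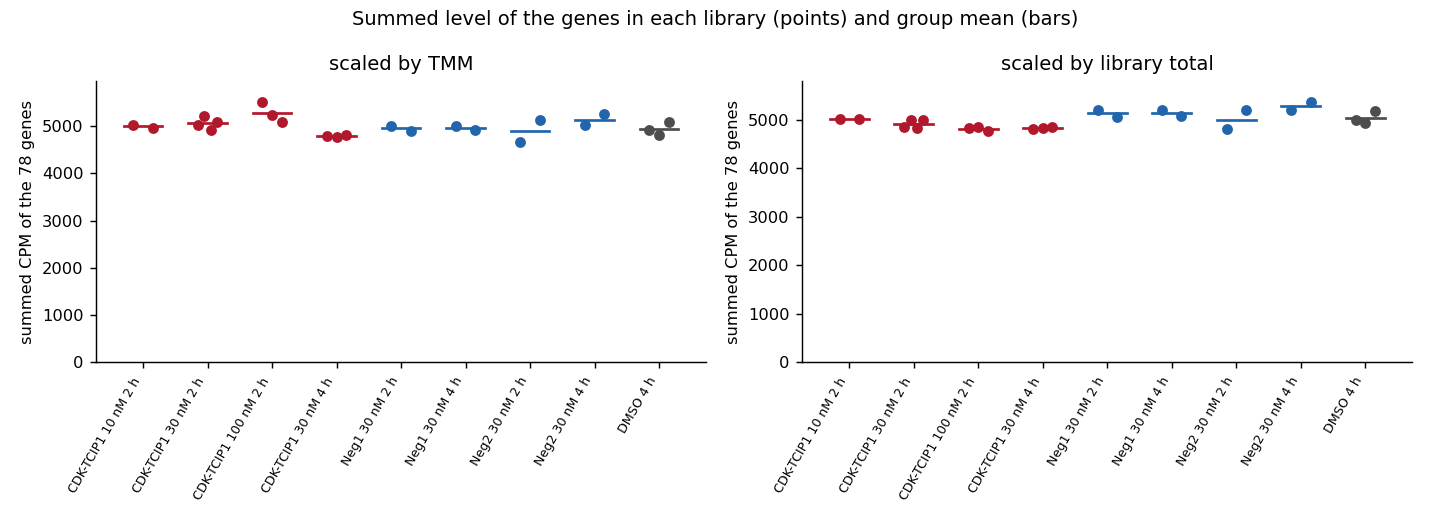
Summed CPM of the 78 genes in each library (points) with group means (bars), on TMM scaling (left) and library totals (right). The 100 nM libraries average 5270 on the left and 4819 on the right, above DMSO on the left and below it on the right.

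Library totals ran from 17396484 to 26373153 estimated counts. The labels do not say that replicates were separate cultures, so p-values reflect only how far these samples vary, and that variation may be technical. In bulk RNA, fewer cells of a kind and less RNA per cell cannot be told apart. The 8 B cell markers summed to 2280 to 3070 CPM, the T and NK cell markers to 1.51 to 3.69, the myeloid markers to 0.521 to 1.67 with S100A8 at 0, the erythroid markers to 0 to 1.88 with HBA2 and HBB at 0, and the epithelial and fibroblast markers to 42.3 to 65.4. Replicate 1 of 100 nM CDK-TCIP1 and replicate 1 of Neg2 at 2 h stood apart from the other libraries of their groups. Counts of members called in the CDK-TCIP1 comparisons that use them are given with and without them. The means of summed levels include them.

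After 30 nM CDK-TCIP1 for 4 h, MRPL44 rose and MRPS35 and MRPL39 fell by more than any other member on either side. Of the 78 genes, 9 rose and 19 fell against DMSO (edgeR, adjusted p under 0.05), where 17.5% of all genes tested rose and 19.3% fell. The median log2 fold change was -0.06 for the members and 0.03 for all genes tested. Members changed by more than 0.5 on the log2 scale in 3.85% of cases, against 17.1% of the 6187 genes tested within the members' range of average level. With upper-quartile scaling the split was 12 higher and 15 lower, and the median of all genes moved by 0.06 on the log2 scale. On library totals the split was 8 and 20, and with counts scaled by transcript length it was 5 and 16. The members' median less that of all genes was -0.09 with TMM, upper-quartile factors and library totals alike. With protein_coding transcripts only, 12 rose and 17 fell, and the median was -0.006 for the members and 0.015 for all genes tested. Of the 8 B cell markers 5 fell and 0 rose by edgeR in the same comparison, led by PAX5 and MS4A1 at -0.46 and -0.45. Markers of other cell types were also called: ACTA2 had 7.44 ± 0.929 CPM in 30 nM CDK-TCIP1 at 4 h and 0.743 ± 0.230 CPM in DMSO (log2 fold change 3.33), ALAS2 had 1.03 ± 0.790 CPM in 30 nM CDK-TCIP1 at 4 h and 0.0805 ± 0.107 CPM in DMSO (3.62), and DCN had 35.2 ± 2.90 CPM in 30 nM CDK-TCIP1 at 4 h and 47.0 ± 1.63 CPM in DMSO (-0.42; SD, n = 3 each). The part of these markers in the results was not tested.

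MRPL44, a protein of the large subunit found only in mitochondrial ribosomes, had 101, 101 and 94.6 CPM in 30 nM CDK-TCIP1 at 4 h, against 58.0, 57.1 and 55.0 CPM in DMSO. The 3 treated libraries all lay well above the 3 DMSO libraries. Its log2 fold change was 0.80 ± 0.06 (SE, edgeR adjusted p = 7.84e-11). It was 0.89 against Neg1 and 0.91 against Neg2 at 4 h, comparisons that share the CDK-TCIP1 libraries.

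MRPL49, also of the large subunit, had 114, 111 and 105 CPM in 30 nM CDK-TCIP1 at 4 h, against 83.5, 79.4 and 88.0 CPM in DMSO. The groups did not overlap, and the log2 fold change was 0.39 ± 0.05 (SE, edgeR adjusted p = 1.87e-06). It was 0.28 against Neg1 and 0.24 against Neg2 at 4 h, both called. It starts beside FAU on the other strand, whose own change was 0.37 (edgeR adjusted p = 0.00211); as the strand setting is not given, reads where they overlap have no certain gene. MRPL23, a large subunit protein with a bacterial counterpart, had 84.8, 90.5 and 88.3 CPM in 30 nM CDK-TCIP1 at 4 h, against 69.0, 66.6 and 68.0 CPM in DMSO. All treated libraries were higher, with a log2 fold change of 0.37 ± 0.07 (SE, edgeR adjusted p = 0.000193). Against Neg1 and Neg2 at 4 h it had 0.21 and 0.18, neither of which was called.

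MRPL33, another large subunit protein with a bacterial counterpart, had 23.1, 21.6 and 25.4 CPM in 30 nM CDK-TCIP1 at 4 h, against 16.0, 14.8 and 19.8 CPM in DMSO. The lowest treated library lay just above the highest DMSO library, and the log2 fold change was 0.47 ± 0.12 (SE, edgeR adjusted p = 0.0026). The treated libraries overlapped Neg1 at 4 h, with 22.4 and 18.8 CPM, and Neg2 at 4 h, with 20.7 and 22.1 CPM. The log2 fold change was 0.18 against Neg1 and 0.13 against Neg2 (edgeR adjusted p = 0.326 and 0.519), so at 4 h the rise was called against DMSO alone. Its annotated span overlaps BABAM2 and RBKS. The other named rises were smaller: 0.23 for MRPS11, MRPL30 and MRPL11 and 0.22 for MRPS14, each lost in at least 4 of the 16 alternative fits. The rise of MRPS14 became -0.04 when counts were scaled by transcript length.

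MRPS35, a small subunit protein without a bacterial counterpart, had 81.9, 74.1 and 84.3 CPM in 30 nM CDK-TCIP1 at 4 h, against 128, 135 and 122 CPM in DMSO. The groups stood far apart, and the log2 fold change was -0.68 ± 0.06 (SE, edgeR adjusted p = 1.41e-09). MRPL39, of the large subunit, had 34.8, 29.4 and 31.6 CPM in 30 nM CDK-TCIP1 at 4 h, against 45.4, 44.1 and 48.1 CPM in DMSO. It fell in all 3 treated libraries, by 0.52 ± 0.07 on the log2 scale (SE, edgeR adjusted p = 2.44e-06). MRPS26, of the small subunit, had 44.1, 52.0 and 43.2 CPM in 30 nM CDK-TCIP1 at 4 h, against 61.8, 58.7 and 63.8 CPM in DMSO. It was lower in every treated library (log2 fold change -0.40, edgeR adjusted p = 0.00089).

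Against Neg1 and Neg2 at 4 h, the log2 fold changes were -0.52 and -0.61 for MRPS35, -0.48 and -0.60 for MRPL39, and -0.55 and -0.60 for MRPS26. Smaller falls against DMSO were -0.45 for MRPL57, -0.38 for MRPL35, -0.37 for MRPL58, a peptidyl-tRNA hydrolase built into the large subunit, -0.35 for MRPS22 and -0.34 for MRPL17. MRPL35 turned to 0.10 when counts were scaled by transcript length, and the call of MRPL17 was lost when only protein_coding transcripts were counted. MRPL3 fell by 0.27 and MRPS12, which overlaps SARS2, fell by 0.20. MRPS16, MRPL12, the protein of the ribosome's flexible stalk, and MRPL45 were not called, at -0.0047, -0.04 and -0.05.

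**Figure D2:**
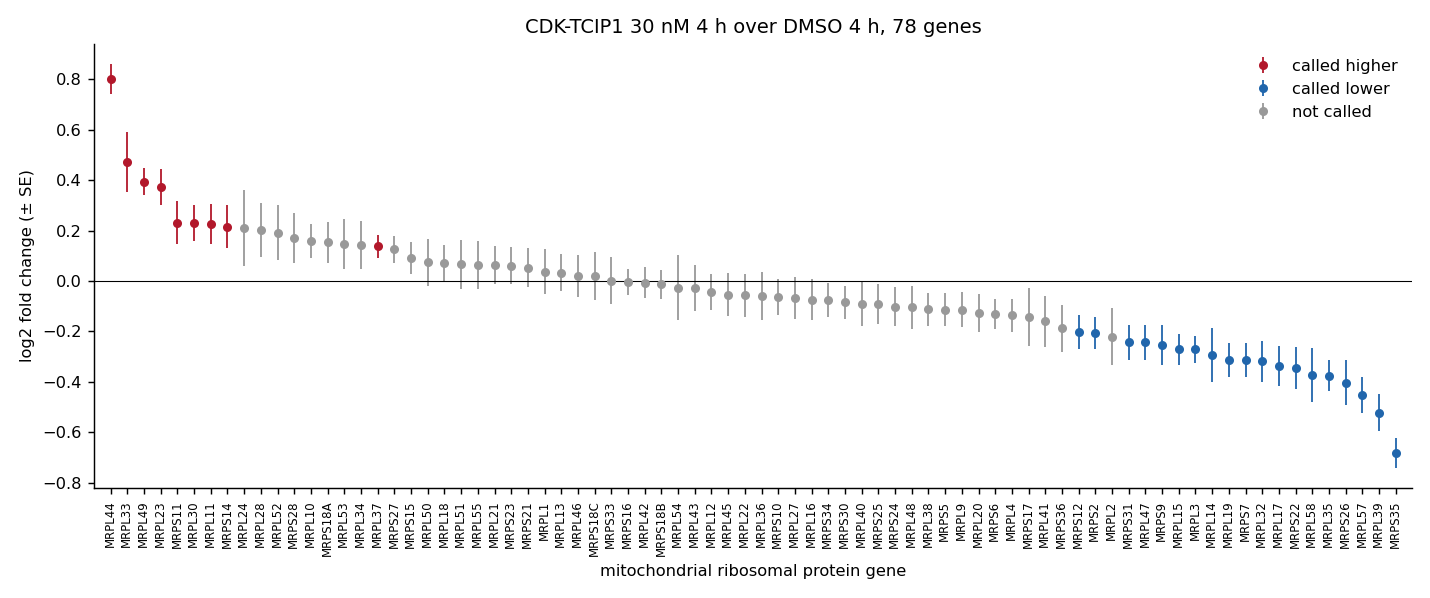
Log2 fold change with its SE for each of the 78 genes, 30 nM CDK-TCIP1 at 4 h over DMSO, ordered by size and coloured by call. MRPL44 stands alone at 0.80 and MRPS35 at -0.68, and 50 genes were not called.

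Members were also counted by place in the ribosome for 30 nM at 4 h against DMSO, where 17.5% of all genes tested rose and 19.3% fell. Of the 30 large subunit genes with bacterial counterparts, 4 rose and 8 fell, and of the 21 without them 3 rose and 3 fell. Of the 16 small subunit genes with bacterial counterparts, 2 rose and 4 fell. Of the 10 without them, 0 rose and 4 fell by edgeR, among them MRPS35, MRPS26 and MRPS22, with 5 of the 10 at an unadjusted p under 0.05. With upper-quartile factors the large subunit sets had 5 rises and 7 falls, and 4 and 3. The small subunit sets then had 2 rises and 1 fall, and 1 and 4, in the same order. MRPS36 had -0.19 and was not called.

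MRPL44 lies at chr2:223957404-223967714 (+), MRPS35 at chr12:27710773-27756295 (+), MRPL39 at chr21:25585656-25607517 (-) and MRPS30 at chr5:44808925-44820428 (+) in the GENCODE 29 annotation of GRCh38. MRPL44 was counted on 1 transcript alone. For MRPS31, of the small subunit, protein_coding transcripts held 67.6 ± 3.8% of its TPM in 30 nM CDK-TCIP1 at 4 h, 81.8 ± 2.9% in Neg1 and 82.5 ± 7.5% in Neg2 at 4 h (SD, n = 3, 2 and 2), and 82.3 ± 1.3% in DMSO (SD, n = 3). For MRPS14 they held 48.4 ± 7.3% in 30 nM CDK-TCIP1 at 4 h, 48.1 ± 7.1% in Neg1 and 40.0 ± 2.4% in Neg2 at 4 h, and 34.2 ± 2.1% in DMSO, so the treated and Neg1 libraries overlapped. The median member spanned 11937 bases and the median protein-coding gene tested 32150. For 30 nM at 4 h against DMSO, 17.5% of all genes tested rose and 19.3% fell. Of the 39 members with the shorter span 2 rose and 7 fell, and of the 39 with the longer span 7 rose and 12 fell. The median log2 fold change was -0.069 for the shorter and -0.028 for the longer. Span and log2 fold change had a Spearman correlation of 0.056 over the 78 members. At 4 h the shorter had 2 rises and 7 falls against Neg1, and the longer 3 and 12, where 14.2% of all genes rose and 16.9% fell. Against Neg2 they had 2 and 11, and 2 and 12, in the same order, where 14.4% of all genes rose and 16.8% fell.

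Against Neg1 at 4 h, 5 members rose and 19 fell (edgeR), where 14.2% of all genes rose and 16.9% fell. Against Neg2 at 4 h, 4 rose and 23 fell, where 14.4% rose and 16.8% fell. The largest rise after MRPL44 was 0.30 for MRPL11 against Neg1 and 0.24 for MRPS27 against Neg2. The splits moved to 8 higher and 14 lower against Neg1, and to 9 and 19 against Neg2, with upper-quartile scaling. On library totals they were 4 and 23 against Neg1 and 3 and 28 against Neg2. With TMM and both of these scalings, the members' median less that of all genes was -0.07 against Neg1 and -0.14 against Neg2. With protein_coding transcripts only, the splits were 9 and 15 against Neg1 and 9 and 20 against Neg2. The members' median less that of all genes was then -0.01 and -0.08.

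After 2 h at 30 nM, MRPS30, MRPL17 and MRPS2 fell most against Neg1, MRPS30, MRPS17 and MRPL17 fell most against Neg2, and MRPL23 rose against both. At 30 nM, 14 members rose and 10 fell against Neg1 at 2 h (edgeR), where 13.6% of all genes rose and 14.2% fell. Against Neg2 at 2 h, 13 rose and 14 fell, where 14.8% rose and 15.7% fell, and without the 2 libraries that stood apart 4 rose and 12 fell. The split depends on the scaling: against Neg1 it was 17 and 5 with upper-quartile factors and 5 and 21 on library totals. Against Neg2 it was 20 and 10, and 10 and 21. The median of all genes moved too, by 0.06 and -0.09 against Neg1 and by 0.06 and -0.07 against Neg2. The members' median less that of all genes stayed at 0.01 against Neg1 with TMM and both of these scalings.

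MRPS30, despite its symbol a large subunit protein, had 50.6, 47.4, 49.5 and 49.9 CPM in 30 nM CDK-TCIP1 at 2 h, against 72.3 and 71.9 CPM in Neg1 and 79.4 and 72.2 CPM in Neg2 at 2 h. Every treated library was lower than every control library. The log2 fold change was -0.55 ± 0.07 against Neg1 and -0.62 ± 0.07 against Neg2 (SE, edgeR adjusted p = 1.73e-06 and 2.15e-07). MRPL17, a large subunit protein with a bacterial counterpart, had 29.01, 32.1, 31.3 and 33.2 CPM in 30 nM CDK-TCIP1 at 2 h, against 49.5 and 46.5 CPM in Neg1 and 42.0 and 44.7 CPM in Neg2. Its groups did not overlap either, with log2 fold changes of -0.61 and -0.47. MRPS2, of the small subunit, fell by 0.38 against Neg1 (edgeR adjusted p = 0.00014).

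MRPL44 had 72.6, 75.6, 71.8 and 66.1 CPM in 30 nM CDK-TCIP1 at 2 h, against 55.8 and 56.7 CPM in Neg1 and 55.6 and 57.8 CPM in Neg2 at 2 h. The treated libraries were all higher, with a log2 fold change of 0.35 against Neg1 (edgeR adjusted p = 0.000198). MRPL23 rose by 0.36 against Neg1, a call that was lost without replicate 2 of Neg1. MRPL24, MRPL28 and MRPL33 rose by 0.56, 0.54 and 0.42 against Neg2, but these calls were lost without replicate 1 of Neg2. MRPS17 fell by 0.50 against Neg2 (edgeR adjusted p = 0.00207).

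Over the doses at 2 h, the mean CPM of MRPS30, MRPL17 and MRPS2 was lower and that of MRPL23 higher at each higher dose. Of these, MRPL17 and MRPS2 were not called between 30 and 10 nM. Against DMSO, 3 members rose and 6 fell at 10 nM (edgeR), where 5.93% of all genes rose and 7.12% fell. At 30 nM 13 rose and 13 fell, where 16.7% rose and 17.6% fell, and at 100 nM 26 rose and 17 fell, where 20.6% rose and 22% fell. The comparisons share the DMSO libraries. On library totals the split at 100 nM was 12 higher and 31 lower, and with upper-quartile factors it was 40 and 11; the median of all genes moved by -0.16 and 0.11 on the log2 scale under these scalings. Without the 2 libraries that stood apart, 19 rose and 17 fell at 100 nM. At 30 nM the split was 8 and 23 on library totals and 27 and 9 with upper-quartile factors. The median of all genes at 30 nM then moved by -0.07 and 0.08. At 10 nM the split was 6 and 2 with upper-quartile factors, where the median of all genes moved by 0.04.

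MRPS30 had 59.4 and 68.0 CPM at 10 nM, 50.6, 47.4, 49.5 and 49.9 CPM at 30 nM and 34.8, 38.2 and 40.7 CPM at 100 nM, against 71.5, 71.5 and 69.3 CPM in DMSO at 4 h. The doses did not overlap each other, and none overlapped DMSO. The log2 fold change over DMSO was -0.52 at 30 nM and -0.90 at 100 nM, and -0.15 at 10 nM, which was not called. Its step was -0.37 between 30 and 10 nM and -0.38 between 100 and 30 nM (edgeR adjusted p = 0.00448 and 0.000329), the first of which was lost without replicate 2 of 10 nM. MRPL17 fell by 0.30, 0.55 and 0.83 and MRPS2 by 0.31, 0.48 and 0.65 at 10, 30 and 100 nM. The other named changes at 10 nM were 0.39 for MRPS28, 0.34 for MRPS14 and -0.26 for MRPL57, and none of the 9 calls at 10 nM was kept in every alternative.

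MRPL23 had 75.8 and 71.3 CPM at 10 nM, 92.3, 95.0, 88.8 and 94.9 CPM at 30 nM and 123, 107 and 93.6 CPM at 100 nM, against 69.0, 66.6 and 68.0 CPM in DMSO at 4 h. The 30 nM and 100 nM libraries overlapped each other but lay above the 10 nM and DMSO libraries. Its log2 fold change over DMSO was 0.45 at 30 nM and 0.67 at 100 nM. The step of MRPL23 was 0.34 between 30 and 10 nM and 0.22 between 100 and 30 nM (edgeR adjusted p = 0.0184 and 0.0291). The first call was lost with counts scaled by transcript length. The second was lost without the 2 libraries that stood apart. MRPL11, whose annotated span overlaps PELI3 on the other strand, rose by 0.57 and MRPL33 by 0.56 at 100 nM. MRPL44 stood at 0.27, 0.33 and 0.30 over DMSO at 10, 30 and 100 nM.

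**Figure D3:**
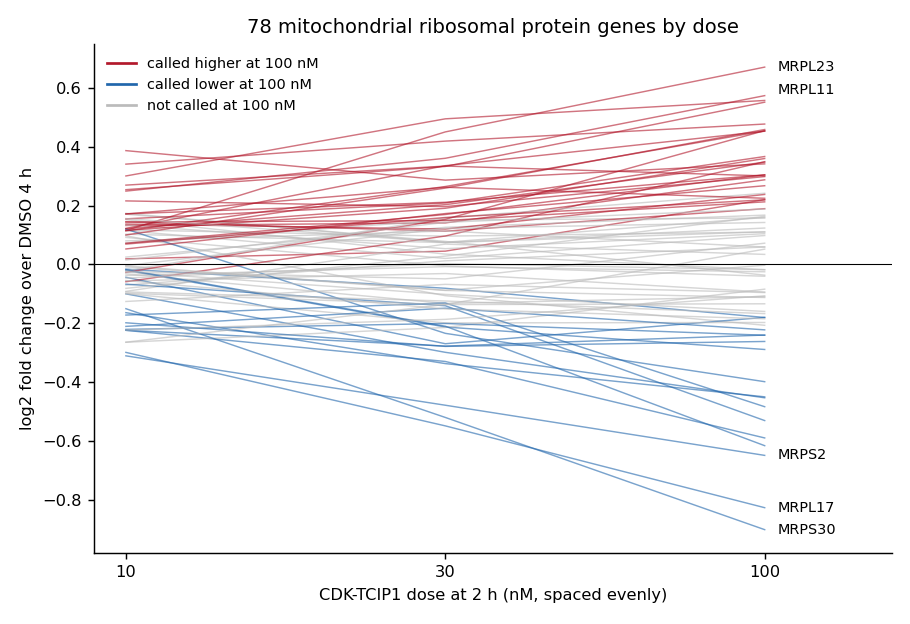
Log2 fold change over DMSO at 4 h for each of the 78 genes at 10, 30 and 100 nM CDK-TCIP1 for 2 h, 1 line per gene, coloured by the call at 100 nM. MRPS30, MRPL17 and MRPS2 end lowest, at -0.90, -0.83 and -0.65, and MRPL23 ends highest at 0.67.

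Between 30 and 10 nM, 1 member rose (MRPL23) and 1 fell (MRPS30) by edgeR, where 0.8% of all genes rose and 1.82% fell. On library totals the split was 1 and 3, and the median of all genes moved by -0.04. Between 100 and 30 nM, 5 rose and 5 fell, where 4.44% rose and 8.45% fell. With upper-quartile factors 7 rose and 4 fell, and on library totals 0 rose and 8 fell by edgeR. The median of all genes moved by 0.04 and -0.09 under these scalings. Without the 2 libraries that stood apart 0 rose and 3 fell by edgeR. DESeq2 gave 6 and 5, and 19 members had an unadjusted p under 0.05. The rises of MRPL48 (0.30) and MRPL4 (0.25) were lost without replicate 1 of 100 nM. The falls of MRPS18A, a large subunit protein, by 0.41, and of MRPL46 by 0.39 were kept in each alternative.

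MRPL46 and MRPS11 start beside each other on opposite strands and differed at 100 nM. MRPL46 had 21.0, 22.2 and 22.9 CPM at 100 nM, against 31.2, 28.9 and 35.5 CPM in DMSO. All 3 treated libraries were lower, with a log2 fold change of -0.53 (edgeR adjusted p = 1.58e-05). MRPS11 had 55.4, 55.9 and 47.8 CPM at 100 nM, against 45.8, 41.5 and 41.9 CPM in DMSO. It was higher in all 3, with a log2 fold change of 0.30 (edgeR adjusted p = 0.00609). Its most abundant transcript is annotated as a retained intron. A start on the opposite strand within 1000 bases was found for 34 of the 78 members (43.6%), against 30.1% of protein-coding genes tested.

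Between 4 h and 2 h at 30 nM, MRPL44 and MRPS30 rose and MRPS35 fell. In all, 8 members rose and 13 fell (edgeR), where 10.3% of all genes rose and 11.6% fell. MRPL44 had 101, 101 and 94.6 CPM at 4 h, against 72.6, 75.6, 71.8 and 66.1 CPM at 2 h. The 4 h libraries were all higher (log2 fold change 0.47, edgeR adjusted p = 8.15e-07). MRPS30 had 67.7, 63.1 and 69.5 CPM at 4 h, above every 2 h library, and rose by 0.44. MRPS18A rose by 0.36, while MRPS35 fell by 0.40, MRPL41 by 0.32 and MRPS36 by 0.31; the call of MRPL41 was lost in 5 of 17 alternatives.

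The difference between times in the effect over Neg1 and Neg2 was also tested. It was higher at 4 h for 3 members and lower for 9 (edgeR), where 5.61% of all genes were higher and 6.37% lower. On library totals 4 were higher and 7 lower, and the median of all genes moved by 0.05. Without the 2 libraries that stood apart 3 were higher and 7 lower. MRPS30 had a log2 fold change of 0.00 at 4 h and -0.58 at 2 h over the mean of Neg1 and Neg2, a difference of 0.58 ± 0.08 (SE, edgeR adjusted p = 5.55e-05). MRPL44 had 0.90 at 4 h and 0.34 at 2 h, a difference of 0.56 ± 0.08 (SE, edgeR adjusted p = 2.44e-05). MRPL41, of the large subunit, had -0.35 at 4 h and 0.21 at 2 h, a difference of -0.56 (edgeR adjusted p = 0.00505). MRPS35, MRPL39 and MRPS26 were lower by 0.36, 0.35 and 0.40 at 4 h than at 2 h.

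**Figure D4:**
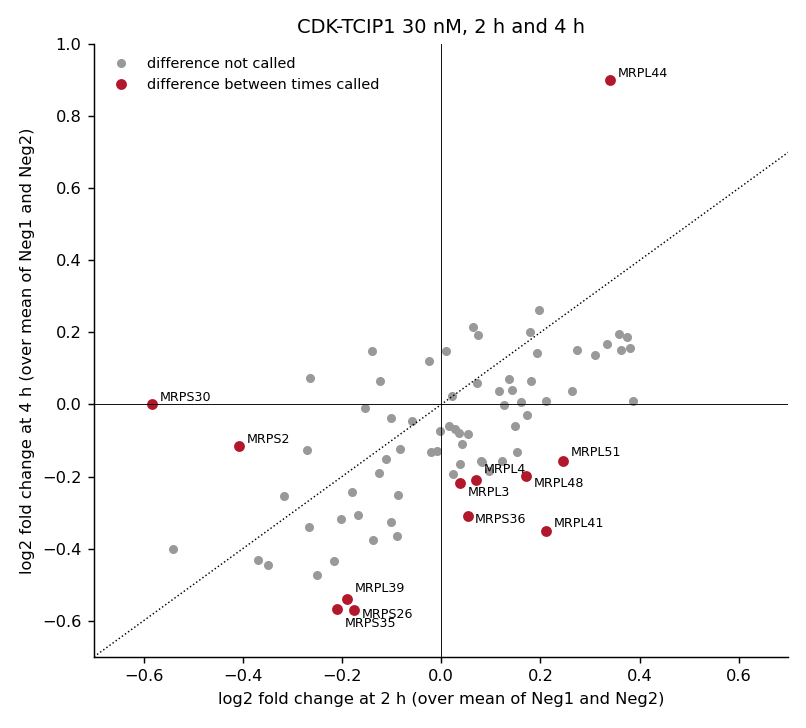
Log2 fold change of 30 nM CDK-TCIP1 over the mean of Neg1 and Neg2 at 4 h (vertical) against that at 2 h (horizontal) for the 78 genes, with the 12 genes whose difference was called in red. MRPS30 lies at 0.00 and -0.58, and MRPL44 at 0.90 and 0.34.

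**Figure D5:**
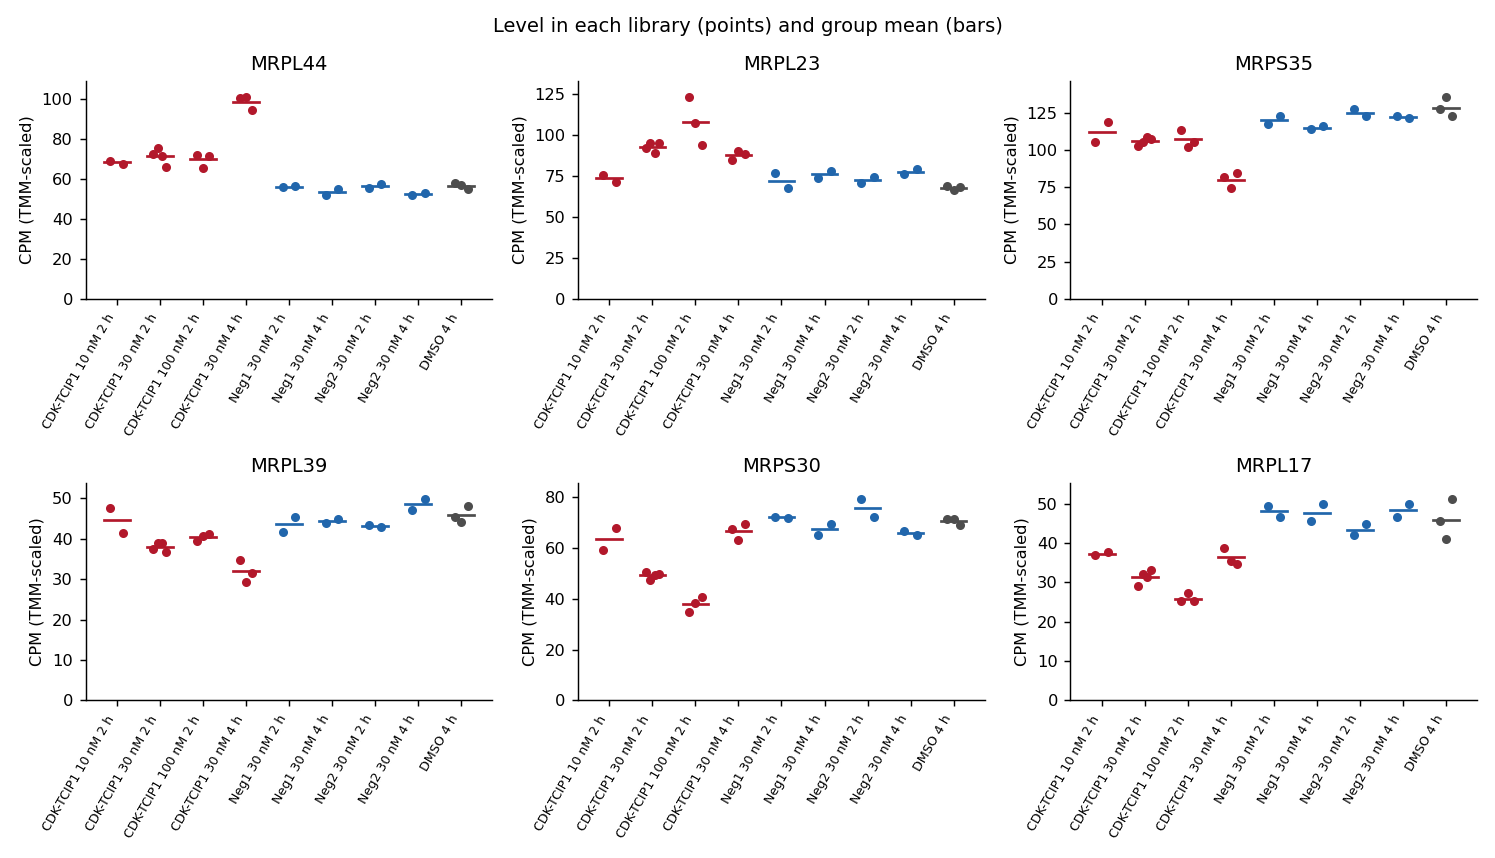
CPM in each library (points) and group mean (bars) for 6 genes across the 9 groups. MRPL44 is highest in the 30 nM CDK-TCIP1 4 h libraries, at 94.6 to 101, and MRPS30 is lowest in the 100 nM libraries, at 34.8 to 40.7.

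Among the controls no member was called by edgeR: 0 of 78 for Neg1 against DMSO at 4 h, where 0% of all genes were called, with 4 members at an unadjusted p under 0.05, and 0 of 78 for Neg2 against DMSO, where 0% were called, with 9. Neg1 against Neg2 called 0 members at 4 h and 0 at 2 h (0% of all genes each), with 2 and 7 at an unadjusted p under 0.05, and 4 h against 2 h for Neg1 and Neg2 together called 0 (0%), with 7. DESeq2 called 0 members in each. MRPL44, for example, had 52.0 and 55.0 CPM in Neg1 and 52.2 and 52.9 CPM in Neg2, against 58.0, 57.1 and 55.0 CPM in DMSO.

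Lists of genes that work with the mitochondrial ribosome were counted after 30 nM for 4 h against DMSO, where 17.5% of all genes rose and 19.3% fell. The 15 translation factors were near those shares: 3 rose, among them the recycling factor MRRF (0.55) and MTRF1L (0.37), and 3 fell, among them the initiation factor MTIF2 (-0.57) and the elongation factor GFM1 (-0.53). Of 25 assembly and rRNA modification genes 8 rose, led by NOA1 (0.59) and MTG1 (0.39), and 6 fell, led by FASTKD2 (-0.70) and TFB1M (-0.43). PTCD3 (-0.42) was the 1 fall among 5 ribosomal proteins with other symbols. Of 16 transcription and RNA handling genes 1 rose, LRPPRC (0.15), and 4 fell, among them PRORP (-0.39) and PNPT1 (-0.34).

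Of 9 regulators tested, GABPA (0.26) and YY1 (0.12) rose and 4 fell, with MYC at 59.5 ± 3.37 CPM in 30 nM CDK-TCIP1 at 4 h and 139 ± 4.15 CPM in DMSO (log2 fold change -1.22, SD, n = 3 each) and PPARGC1B at -0.69. Both mitochondrial rRNAs rose in the poly(A) RNA, MT-RNR1 by 0.42 and MT-RNR2 by 0.28. Their total amount was not measured. Of 13 mitochondrially encoded mRNAs 10 rose and 0 fell by edgeR, led by MT-ND3 (0.58) and MT-CO3 (0.34). On library totals 9 of the 13 rose. Of 77 cytosolic ribosomal protein genes tested, 64 rose and 0 fell by edgeR, with a median log2 fold change of 0.26, beside -0.06 for the mitochondrial ones.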

How the data were processed

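Poly(A) RNA of SUDHL5 cells was sequenced in 23 libraries. The tools were kallisto, cutadapt, FastQC and DESeq2, per the submitters' processing notes. Which versions, transcripts and strand setting they used is not given in the sources used here. Deposited by the authors were, per library, estimated counts, TPM and effective lengths for 227912 transcripts. Of these, 205964 matched GENCODE 29 (GRCh38), and the rest, holding 1.16 to 1.28% of counts, were left out. Expected counts were summed over 58592 genes and rounded to whole numbers. The TPM values deposited by the authors were used for levels per length and for length-scaled counts.

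The 78 members, all lists and the 2 libraries left out together were chosen with earlier results of these data known. Groups came from sample titles. edgeR 4.0.16 (R 4.3.3) was used after its filterByExpr rule, with TMM normalization, 1 coefficient per group over all 23 libraries (14 residual degrees of freedom) and quasi-likelihood tests. P-values were adjusted by Benjamini-Hochberg over 17743 genes, and "rose", "fell" and "called" mean an adjusted p under 0.05. Fold changes are log2 and relative to the bulk of genes. The script was tested on simulated data. Each library was treated as 1 sample. Replicates differed by more than sampling noise (chi-square per degree of freedom 4.32 to 14.2), which cannot show whether they were separate cultures.

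Members were named by rule: the 8 largest called rises and falls for 30 nM at 4 h against DMSO, the 3 largest each way in other comparisons, the 2 highest and 2 lowest in TPM, and MRPL12, MRPL3, MRPL45, MRPL58, MRPS12, MRPS16 and MRPS22. MRPL46 with MRPS11 at 100 nM, the coding shares of MRPS31 and MRPS14, the other-cell markers and members listed by role were described after their values were seen. From other lists the 2 largest called rises and falls, and MYC, were named. Alternatives were other scalings, no filter, length-scaled counts, protein_coding transcripts only, a replicate block, only the groups compared, libraries left out, and DESeq2 1.42.0.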

Additional observations from a re-analysis of the deposited data

Results flagged for a closer look

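MRPL51 had 232 CPM in replicate 3 of 30 nM CDK-TCIP1 at 2 h, far below the other 3 libraries of that group, and MRPS14 had 33.5 CPM in replicate 4, below the other 3. Chance alone sets about 1 in 20 such groups apart.

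For 12 members the effect of 30 nM CDK-TCIP1 over Neg1 and Neg2 differed between 4 h and 2 h by the edgeR test of that difference. It was higher at 4 h for MRPS30 (0.58), MRPL44 (0.56) and MRPS2 (0.29) on the log2 scale. It was lower at 4 h for MRPL41 (-0.56), MRPL51 (-0.40), MRPS26 (-0.40), MRPL48 (-0.37), MRPS36 (-0.36), MRPS35 (-0.36), MRPL39 (-0.35), MRPL4 (-0.28) and MRPL3 (-0.26). The calls of MRPS30, MRPL44, MRPL41 and MRPS35 were kept in all 25 alternatives. That of MRPS36 was lost in 17 and that of MRPL51 in 11, DESeq2 included for MRPL51.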

How the results depend on the processing

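Counts of members called are given here. Scaled by transcript length they were 15 for 30 nM at 4 h against Neg1, 10 for 30 nM at 2 h against Neg1, 3 for 10 nM against DMSO, 1 for 30 against 10 nM, 4 for 100 against 30 nM, 9 for 4 h against 2 h and 5 for the difference between times. Without the 2 libraries that stood apart they were 16 for 30 nM at 2 h against Neg2 and 3 for 100 against 30 nM. With only the groups compared they were 5 for 100 against 30 nM and 1 for Neg2 against DMSO. Library totals gave 4 for 30 against 10 nM. No filter gave 1 each for Neg2 against DMSO, Neg1 against Neg2 at 2 h and the controls at 4 h against 2 h. Leaving out 1 library at a time gave 21 to 24 for 30 nM at 4 h against DMSO, 12 to 23 against Neg1 (12 and 13 without Neg1 replicate 1 and 2) and 17 to 27 against Neg2 (17 without Neg2 replicate 2). At 2 h it gave 8 to 22 against Neg1 (8 and 11 without Neg1 replicate 1 and 2, 14 without CDK-TCIP1 replicate 2) and 13 to 31 against Neg2 (13 without Neg2 replicate 1). It gave 1 to 9 for 10 nM (1 and 2 without its replicate 1 and 2, 5 without DMSO replicate 1 or 2), 21 to 26 for 30 nM and 34 to 43 for 100 nM at 2 h against DMSO. It gave 0 to 3 for 30 against 10 nM (1 and 0 without 10 nM replicate 1 and 2), 3 to 13 for 100 against 30 nM (3 without 100 nM replicate 1, 6 without 30 nM replicate 3) and 17 to 19 for 4 h against 2 h. It gave 7 to 17 for the difference between times (7 without Neg1 2 h replicate 2 or Neg2 2 h replicate 1). For the controls it gave 0 to 0 for Neg1 and for Neg2 against DMSO and for Neg1 against Neg2 at 4 h, 0 to 1 for Neg1 against Neg2 at 2 h and 0 to 2 for 4 h against 2 h. Against DMSO at 4 h, MRPS14 turned to -0.0391, MRPL35 to 0.0958, MRPS16 to 0.0377 and MRPL51 to -0.0328 with length scaling. Upper-quartile factors turned MRPS16 to 0.0595, MRPL12 to 0.0202 and MRPL45 to 0.0101. MRPS16 turned to 0.0021 with only the groups compared and to 0.0097 and 0.0070 without CDK-TCIP1 replicate 1 and 3 (range -0.0467 to 0.0097 with 1 library left out), and MRPL12 to 0.0000 with protein_coding transcripts. The cause was not tested. Replicate numbers did not pair the samples (78 same-number pairs, r -0.23 to 0.21), and the replicate block gave 27 calls for 30 nM at 4 h against DMSO.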
